A study of Mus musculus with 16 samples.

Results

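The 24 h response of cardiomyocytes from control mice to linagliptin was taken from 10 of the 16 libraries of the series, the 5 labelled as control cells with linagliptin and the 5 labelled as control cells with vehicle. The linagliptin libraries came from primary cultured adult cardiomyocytes of C57BL/6 mice of about 8 weeks of age that were exposed to 9 nmol/L linagliptin for 24 h. The vehicle libraries came from the same kind of cells kept for 24 h with 0.1% DMSO. The other 6 libraries were of cells from DM-HFD mice, which were fed a high fat diet for 26 weeks and given streptozotocin when 12 of these had passed, and they enter here only beside a control result. The labels do not say whether the 5 samples of a group came from separate mice, so the p-values below measure the spread between these samples, which may be technical.

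Linagliptin inhibits dipeptidyl peptidase 4 (DPP-4), a serine protease of the cell surface and plasma that cleaves short peptides, among them the incretin hormones. Incretins act through receptors coupled to cAMP, and cAMP and cGMP set the phosphorylation of the proteins that cycle calcium in the cardiomyocyte. Phospholamban (Pln) restrains the calcium pump of the sarcoplasmic reticulum, SERCA2a (Atp2a2). The study asked about the phosphorylation of phospholamban, which RNA does not measure, and the levels of Pln and Atp2a2 are given here as RNA only. Most cardiac genes give rise to several mRNAs, or isoforms, by alternative start sites, splicing and polyadenylation, and isoforms of a gene can code for proteins that differ in a few residues or in whole domains. Dpp4 itself was not analysed here.

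Expression was given as FPKM, fragments scaled to the length of the transcript and to the size of the library. The FPKM of a library summed to 319929 to 340389 with linagliptin and to 315152 to 344908 with vehicle, and the number of reads behind each library is not given in the sources used here. The rank correlation between any 2 of the 10 libraries was 0.957 to 0.987. The first principal component, which held 40.8% of the variance, set 3 libraries apart: linagliptin replicate 3 at 27.0, vehicle replicate 3 at 14.1 and vehicle replicate 4 at 27.8, while the others lay between -11.7 and -7.17. Both treatments were represented among these 3, and the scores of linagliptin and vehicle libraries overlapped (p = 0.722 by an exact permutation test, two-sided, n = 5 each, where the smallest p possible is 0.00794). The counts of calls, and the calls on single genes and isoforms, are also given below without these 3 libraries where their omission ended a call or moved a count by more than 1.5 times. Such results are not given for the shares that were picked out from the lists of genes.

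**Figure D1:**
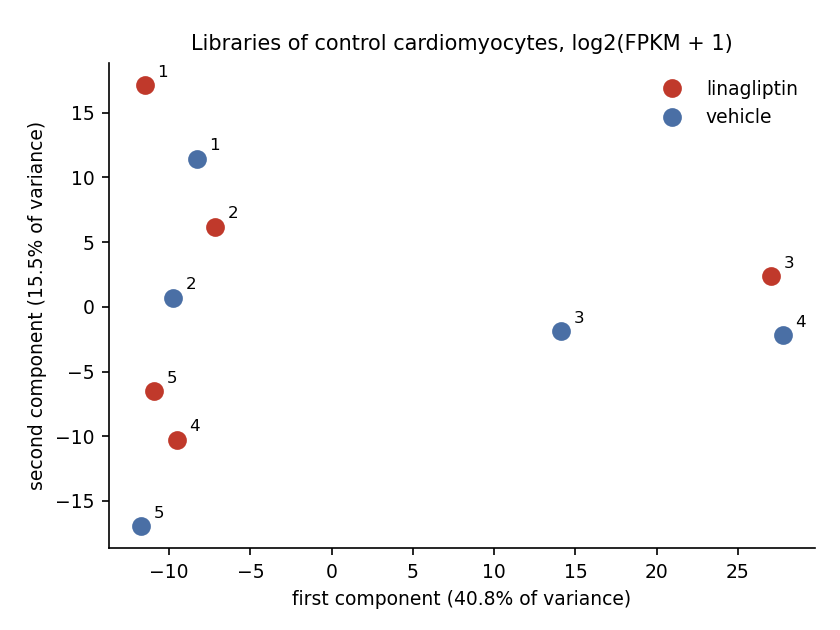
Each point is one library of control cells, placed by its scores on the first and second principal component of log2(FPKM + 1) over the genes tested (percent of variance on the axes), with linagliptin and vehicle in different colours and replicate numbers beside the points. Linagliptin replicate 3 and vehicle replicates 3 and 4 lie to the right of the other 7 libraries.

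At the level of whole genes, linagliptin was followed by few differences. Of 11365 genes tested, 25 (0.220%) passed the thresholds used by the study, namely a change of 1.5-fold or more (here on the log2(FPKM + 1) scale) with an unadjusted p of at most 0.05. Of these, 13 (0.114%) were higher and 12 (0.106%) lower with linagliptin. No gene had an adjusted p under 0.05 by limma with Benjamini-Hochberg adjustment (lowest adjusted p = 0.997), and 455 genes had an unadjusted p under 0.05, where 568 would be at that level if no gene differed. The number at that level was 260 without linagliptin replicate 2, but 981 without linagliptin replicate 3 and 951 without the 3 libraries that lay apart, still with 0 genes at an adjusted p under 0.05 in each. The model of Ballgown, which the study used, also gave 0 genes at an adjusted p under 0.05 and 521 at an unadjusted p under 0.05. The fold change was below 1.2 in either direction for 94.9% of the genes, and the median standard error of a log2 fold change was 0.11. The count of 25 depended on single libraries: 53 genes passed without linagliptin replicate 3, and 53 without the 3 libraries that lay apart. Scaling the libraries by median of ratios gave 22 genes, of which 8 were higher and 14 lower.

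The make-up of isoforms within a gene was compared next. The share of an isoform was its FPKM divided by the summed FPKM of the listed transcripts of its gene. Of 12976 shares of 4935 genes tested, 655 (5.05%) differed by at least 10 percentage points at an unadjusted p of at most 0.05, 336 (2.59%) higher and 319 (2.46%) lower with linagliptin. In a gene with 2 listed isoforms both shares carry the same difference and p, and each is counted. The 655 shares belonged to 424 genes (8.59%), and only 4 of those genes were among the 25 above. An unadjusted p under 0.05 was reached by 842 shares, where 649 would be at that level if none differed. At an adjusted p under 0.05 by limma there were 7 shares (0.0539%), of 5 genes: Unkl, Bud13, Epb41l2, Fbf1 and Dgcr2. None of these 5 genes passed the thresholds as a whole gene. The number of such shares was 3 without linagliptin replicate 1 and 3 without linagliptin replicate 2. It was 12 without linagliptin replicate 4, 14 without vehicle replicate 1, and 27 without the 3 libraries that lay apart. Of the 7, there were 4 among these 27: the shares of Epb41l2, Fbf1 and Dgcr2.

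The largest of these differences was in Unkl, a relative of the RNA-binding zinc finger protein Unkempt. Isoform Unkl-202 (GENCODE name) took 68.4%, 78.6%, 78.8%, 100% and 78.1% of the FPKM of Unkl in the linagliptin libraries and was listed at 0 in all 5 vehicle libraries. The groups did not overlap, and the adjusted p was 0.00654 (limma). In FPKM, Unkl-202 was 1.27, 1.94, 1.43, 1.35 and 1.91 with linagliptin. The gene as a whole was 1.59, 2.05, 1.46, 1.22 and 1.94 FPKM with linagliptin, against 1.45, 0.561, 1.60, 1.62 and 1.33 FPKM with vehicle, so the gene was low in both groups and their values overlapped. The vehicle libraries held Unkl-204 (27.2%, 81.9%, 23.4%, 61.0% and 100%) and Unkl-201 (72.8%, 18.1%, 76.6%, 39.0% and 0%) in its place. Unkl-202 starts from a first exon of its own, of 96 bases on chromosome 17 from 25188397 to 25188492. Its end, and the exon that follows, are shown because this junction is what sets Unkl-202 apart, with the first exon in capitals (chr17:25188473-25189485, plus strand, GENCODE M21 on GRCm38):
Unkl-202: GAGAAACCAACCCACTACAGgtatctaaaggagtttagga

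Bud13 codes for a subunit of the RES complex, which acts in splicing and retention of pre-mRNA. Its full coding isoform, Bud13-201 of 10 exons, held 100% of the FPKM in each of the 5 linagliptin libraries, against 83.3%, 56.0%, 55.6%, 51.9% and 65.2% in the vehicle libraries. The rest with vehicle was Bud13-206, a model of 5 exons with 555 coding bases against 1911 in Bud13-201, which was listed at 0 in all 5 linagliptin libraries (adjusted p = 0.00719, limma). In FPKM, Bud13-206 was low with vehicle as well, at 0.276, 1.27, 1.15, 0.847 and 0.752. The gene as a whole was similar, at 2.08 to 2.87 FPKM with linagliptin and 1.94 to 2.91 FPKM with vehicle. The shares of Unkl-202 and of both Bud13 isoforms kept an adjusted p under 0.05 in each of the 10 fits that left out 1 library. They lost it without the 3 libraries that lay apart, where the adjusted p was 0.0568 for Unkl-202 and 0.0667 for each Bud13 isoform (limma), with differences of 81.3 and 31.8 percentage points in size.

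Epb41l2 codes for protein 4.1G, which links membrane proteins to the spectrin and actin cytoskeleton. Epb41l2-205, a model of 4 exons and 612 bases, was listed at 0 in all 5 linagliptin libraries, against shares of 9.49%, 10.5%, 23.1%, 16.1% and 13.9% with vehicle (adjusted p = 0.0147, limma). In FPKM, Epb41l2-205 was low with vehicle as well, at 0.319, 0.554, 1.87, 0.315 and 0.695. The adjusted p of its share stayed under 0.05 in 8 of the 10 fits that left out 1 library and was at most 0.0763 in the 2 others, without linagliptin replicate 1 and without linagliptin replicate 2.

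Fbf1 codes for a protein of the distal appendages of the centriole. Fbf1-201 took 0.609%, 0.186%, 15%, 0.0101% and 0.307% of the FPKM with linagliptin, against 92.8%, 95.8%, 49.0%, 69.8% and 99.7% with vehicle. Fbf1-202 held the rest, and both models have 3519 coding bases, while Fbf1-201 has 30 exons and Fbf1-202 has 29. The groups did not overlap, the difference was 78.2 percentage points in mean share and the adjusted p was 0.0427 (limma). Fbf1 as a whole was 1.73 to 2.16 FPKM with linagliptin and 1.70 to 2.78 FPKM with vehicle.

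Dgcr2 codes for a membrane protein of the DiGeorge critical region. Dgcr2-203 took 49.2%, 46.2%, 44.9%, 26.5% and 45.6% with linagliptin, and with vehicle it was listed at 0 in 4 libraries and took 13.4% in replicate 4 (adjusted p = 0.0427, limma). Dgcr2-204 took 38.4%, 37.1%, 43.0%, 54.6% and 16.7% with linagliptin, against 76.7%, 24.9%, 73.7%, 62.3% and 78.2% with vehicle, and these groups overlapped. With 1 library left out, the shares of Fbf1 and Dgcr2 each kept an adjusted p under 0.05 in 2 of the 10 fits by limma, without linagliptin replicate 3 or vehicle replicate 3 for Fbf1 and without linagliptin replicate 4 or vehicle replicate 4 for Dgcr2. Over all 10 fits the adjusted p ranged from 0.00933 to 0.202 for Fbf1 and from 0.00663 to 0.202 for Dgcr2, and each stayed past the thresholds. One splice choice that separates the 2 Dgcr2 isoforms is a single codon, 3 bases at 17859524 to 17859526 of chromosome 16, shown because the isoforms differ there by so few bases. They also differ elsewhere, with 1638 coding bases of 4003 in Dgcr2-204 and 1644 of 2987 in Dgcr2-203. Dgcr2 has 4 listed transcripts, and whether the others carry this codon was not examined. The codon is in capitals (chr16:17859504-17872582, minus strand, GENCODE M21 on GRCm38):
Dgcr2-204: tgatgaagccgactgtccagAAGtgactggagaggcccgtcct
Dgcr2-203: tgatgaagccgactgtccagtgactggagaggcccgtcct

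**Figure D2:**
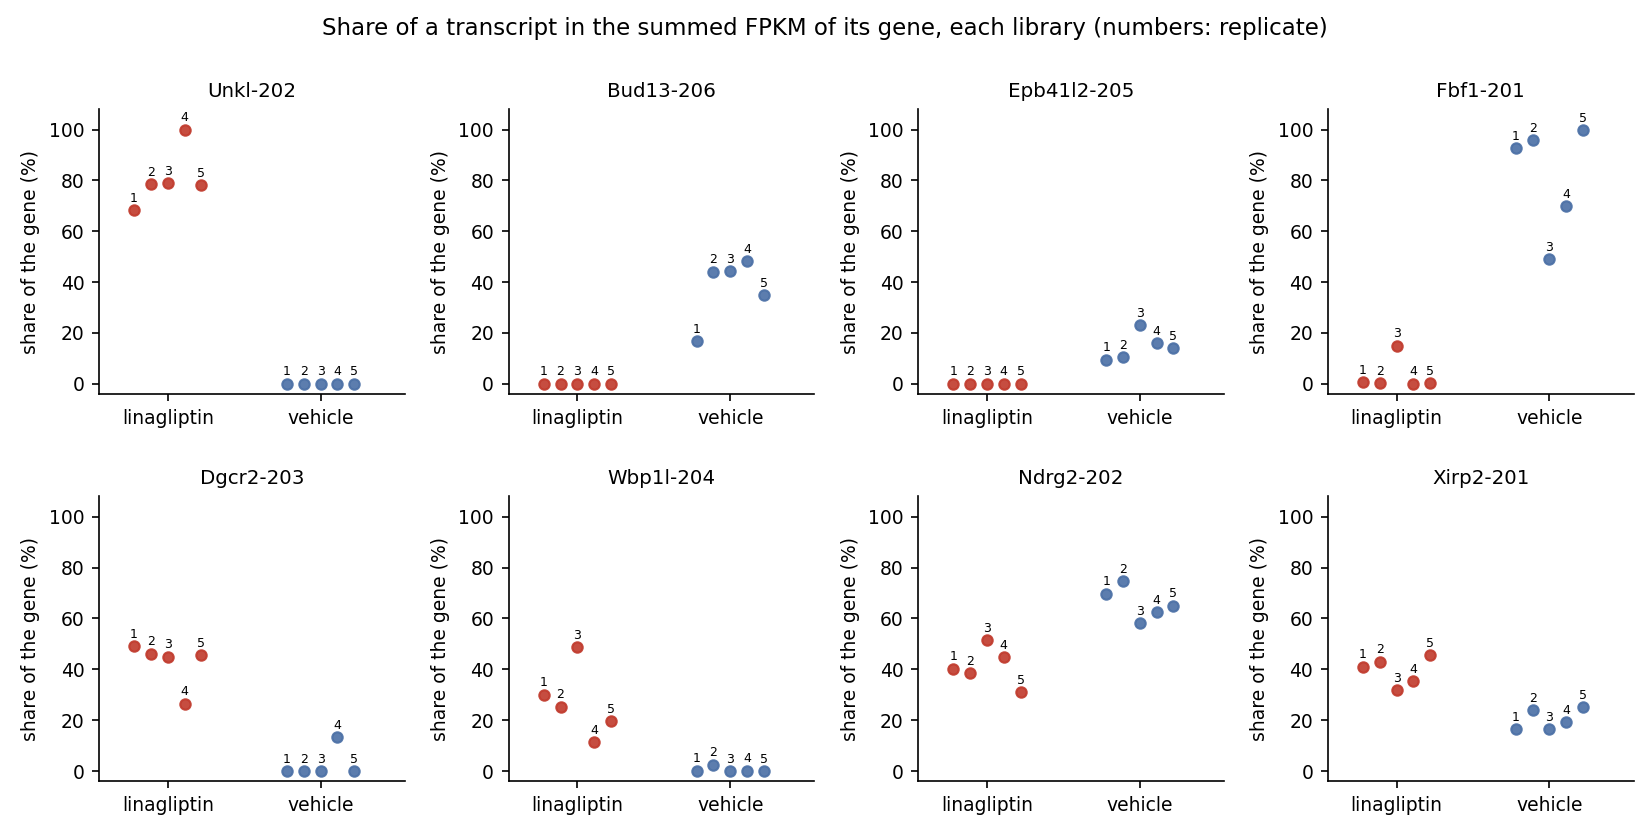
Share of an isoform in the listed transcripts of its gene (percent) in each library of control cells, for isoforms chosen from the 15 shares with the lowest p. Linagliptin is on the left and vehicle on the right of each panel, with a point for each library labelled by replicate number. Unkl-202 lies between 68.4% and 100% in the linagliptin libraries and at 0 in the vehicle libraries, and Fbf1-201 lies at or under 15% with linagliptin and at or above 49.0% with vehicle.

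Further shares did not overlap between the groups, as was so for 212 of the 12976 shares (1.63%), 103 (0.794%) higher and 109 (0.840%) lower with linagliptin, but did not pass the adjustment. Wbp1l-204, of a gene for a protein that binds WW domains, took 30.1%, 25.4%, 48.7%, 11.3% and 19.6% with linagliptin, against 0.153%, 2.48%, 0.00876%, 0.101% and 0.0457% with vehicle (adjusted p = 0.139, limma). Without an exon of 48 bases, or 16 codons, at 46606712 to 46606759 of chromosome 19, it codes for a shorter protein than Wbp1l-201. Wbp1l has 3 listed transcripts, and Wbp1l-202 starts past this exon, at 46623401, and so lacks it too. The shares of Wbp1l-201 and Wbp1l-202 are not given here. The exon is in capitals (chr19:46599274-46644372, plus strand, GENCODE M21 on GRCm38):
Wbp1l-201: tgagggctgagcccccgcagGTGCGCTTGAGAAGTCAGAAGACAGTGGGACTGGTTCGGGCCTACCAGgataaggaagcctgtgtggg
Wbp1l-204: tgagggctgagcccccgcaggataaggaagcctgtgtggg

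Ndrg2 and Xirp2 were the abundant cardiac genes among the 15 shares with the lowest p. Ndrg2, a member of the N-myc downstream-regulated family, was 245 to 356 FPKM with linagliptin and 268 to 365 FPKM with vehicle. Ndrg2-202 took 40.3%, 38.4%, 51.4%, 44.7% and 30.9% with linagliptin, against 69.7%, 74.7%, 58.1%, 62.6% and 65.1% with vehicle (adjusted p = 0.518, limma). Ndrg2-201, which has an exon that Ndrg2-202 lacks, took 45.9%, 30.3%, 13.8%, 25.4% and 36.9% with linagliptin, against 0.948%, 10.6%, 4.92%, 17.1% and 16.2% with vehicle. The shares of Ndrg2-201 overlapped only between linagliptin replicate 3 and vehicle replicates 4 and 5. Ndrg2 has 6 listed transcripts, and whether the others carry this exon was not examined. The exon adds 42 bases, or 14 codons, at 51911086 to 51911127 of chromosome 14, in capitals here (chr14:51910766-51911485, minus strand, GENCODE M21 on GRCm38):
Ndrg2-201: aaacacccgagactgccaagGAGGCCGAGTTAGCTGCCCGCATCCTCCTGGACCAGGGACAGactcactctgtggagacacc
Ndrg2-202: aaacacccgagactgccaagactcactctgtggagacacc

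Xirp2 codes for an actin-binding Xin repeat protein of the intercalated disc. Xirp2-201 took 41.1%, 43.0%, 31.8%, 35.4% and 45.7% with linagliptin, against 16.4%, 24.0%, 16.5%, 19.1% and 25.2% with vehicle, and Xirp2-202 took the rest (adjusted p = 0.518, limma). The gene itself was 298, 254, 140.4, 187 and 246 FPKM with linagliptin and 192, 164, 164, 127 and 148 FPKM with vehicle (log2 fold change 0.47, standard error 0.19, adjusted p = 0.997, limma), so that only replicate 3 of the linagliptin libraries and replicate 1 of the vehicle libraries broke the order. Xirp2-202 carries 16 bases at 67519220 to 67519235 of chromosome 2 that Xirp2-201 lacks. As 16 is not a multiple of the codon length the frames differ from there, and the coding sequence is 9849 bases in Xirp2-202 against 11352 in Xirp2-201. The 16 bases are in capitals (chr2:67517154-67519255, plus strand, GENCODE M21 on GRCm38):
Xirp2-202: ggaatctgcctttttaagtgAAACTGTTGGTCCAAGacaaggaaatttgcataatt
Xirp2-201: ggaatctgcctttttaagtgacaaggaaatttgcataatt

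Of the remaining shares among the first 15, Nudt1-201, of the gene for a hydrolase of oxidised nucleotides, took 64.2%, 50.2%, 51.8%, 67.0% and 36.9% with linagliptin, against 8.87%, 16.4%, 33.8%, 14.8% and 23.6% with vehicle. Nudt1-201 and Nudt1-202 have the same coding length of 468 bases. Zkscan8-201, of a zinc finger gene, took 90.6% to 100% with linagliptin and 58.7% to 87% with vehicle. Gatad2b-208, of a gene for a subunit of the NuRD chromatin complex, took 5.10% to 29.9% with linagliptin and was listed at 0 in all 5 vehicle libraries. In FPKM, Gatad2b-208 was only 0.391 to 0.681 with linagliptin. The groups did not overlap for any of these 3, and each had an adjusted p of 0.518 (limma). Leaving out linagliptin replicate 3 took share Gatad2b-208 and share Gatad2b-205 below the difference of 10 percentage points, to 9.33 points in size, while the other 13 of the 15 shares stayed past the thresholds in every fit that left out 1 library.

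The levels of single transcripts were tested as those of genes were. Of 21472 transcripts tested, 671 (3.12%) passed the fold and p thresholds, 360 (1.68%) higher and 311 (1.45%) lower with linagliptin, and 652 of them belonged to genes that did not. Transcripts with an adjusted p under 0.05 by limma were 3 (0.0140%), Unkl-202 at an adjusted p of 0.00939 and Dgcr2-203 and Fbf1-201 at 0.0427 each. That number was 1 without linagliptin replicate 2 and 1 without linagliptin replicate 3. It was 6 without linagliptin replicate 4, 6 without linagliptin replicate 5, and 13 without the 3 libraries that lay apart, of which 1, Fbf1-201, was among the 3. An unadjusted p under 0.05 was reached by 1330 transcripts, where 1074 would be at that level if none differed. The groups did not overlap for 260 transcripts (1.21%), 149 (0.694%) higher and 111 (0.517%) lower with linagliptin. A value of exactly 0 in at least 1 of the 10 libraries occurred in 18.6% of the transcripts tested. In 4 transcripts all 5 linagliptin libraries were above 0 and all 5 vehicle libraries listed at 0 (Unkl-202, Rmdn2-201, Plekhg2-202 and Gatad2b-208), and in 4 it was the other way (Tmed4-203, H2afj-202, Bud13-206 and Epb41l2-205). These 8 were singled out after their values were seen.

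Anxa4-201, of the gene for an annexin that binds phospholipids in the presence of calcium, was 15.5, 14.3, 14.2, 17.6 and 10.6 FPKM with linagliptin, against 5.07, 6.92, 6.82, 6.37 and 5.98 FPKM with vehicle. All 5 linagliptin libraries were above all 5 vehicle libraries, with a log2 fold change of 1.08 and an adjusted p of 0.0641 (limma). Anxa4 as a gene was 8.00 to 10.4 FPKM with linagliptin and 7.56 to 9.95 FPKM with vehicle, and the share of Anxa4-201 was 78.9% to 92.1% with linagliptin and 64.3% to 73.0% with vehicle. Gene values are not sums of the transcripts, and Anxa4-201 alone was above its gene in every linagliptin library.

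The transcripts described next were among the 15 with the lowest p, and none had an adjusted p under 0.05. Mpv17-202, of a gene for an inner mitochondrial membrane protein needed for mitochondrial DNA, was 3.89, 4.25, 4.46, 4.70 and 3.65 FPKM with linagliptin, against 8.38, 6.03, 9.60, 9.04 and 10.1 FPKM with vehicle (log2 fold change -0.88, adjusted p = 0.236, limma). Txn2-206, a short form of mitochondrial thioredoxin with 389 coding bases against 498 in Txn2-201, was 5.07 to 5.99 FPKM with linagliptin and 10.3 to 28.9 FPKM with vehicle (log2 fold change -1.53, adjusted p = 0.236). Txn2 as a gene was also lower in every linagliptin library, at 15.7, 17.5, 16.8, 17.9 and 16.1 FPKM with linagliptin, against 18.5, 18.2, 21.6, 21.5 and 20.9 FPKM with vehicle, which do not overlap (log2 fold change -0.25, standard error 0.08, adjusted p = 0.997, limma). In vehicle replicates 3 and 4 Txn2-206 alone, at 24.8 and 28.9 FPKM, was above its gene, whose values are not sums of the transcripts.

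Myh6-207, a fragment of 542 bases from the 3' end of the gene for the alpha myosin heavy chain, was 159 to 238 FPKM with linagliptin and 278 to 393 FPKM with vehicle. Myl2-212, a model of 433 bases for the ventricular regulatory light chain, was 179 to 312 FPKM with linagliptin and 368 to 632 FPKM with vehicle. In both the groups did not overlap (log2 fold change -0.85 and -1.12, adjusted p = 0.236 and 0.338, limma). Neither gene as a whole passed the thresholds: Myh6 was 692 to 934 FPKM with linagliptin and 648 to 969.7 FPKM with vehicle, and Myl2 was 1214 to 1343 FPKM with linagliptin and 1268 to 1599 FPKM with vehicle. Myom1-202, of the M-band protein myomesin 1, was higher, at 31.8 to 39.6 FPKM with linagliptin and 14.9 to 24.0 FPKM with vehicle (log2 fold change 0.72, adjusted p = 0.424). Laptm4b-201, of a lysosomal membrane protein, was lower, at 12.5 to 17.8 FPKM with linagliptin and 19.7 to 28.4 FPKM with vehicle (log2 fold change -0.73, adjusted p = 0.387), and so was Smpd4-204, of a neutral sphingomyelinase, at 0 to 1.05 FPKM with linagliptin and 1.41 to 3.88 FPKM with vehicle. Ppp1r10-206, of a nuclear targeting subunit of protein phosphatase 1, was 0.407 to 0.851 FPKM with linagliptin and listed at 0 in 4 of 5 vehicle libraries.

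Among the lists of genes described further below, shares past the thresholds were found for 3 of 7 fatty acid oxidation genes with shares tested (6 of 20 shares), a list picked out after its count was seen. Over all genes it was 424 of 4935 (8.59%) and over all shares 5.05%, and in genes with 2 listed isoforms both shares count. The following isoforms were named after their values were seen, and none had an adjusted p under 0.05. Hadhb codes for the beta subunit of the mitochondrial trifunctional protein, and Hadhb-201 took 39.3%, 38.6%, 32.9%, 35.5% and 44.4% with linagliptin, against 5.43%, 29.4%, 27.8%, 21.5% and 28.9% with vehicle. Etfdh-202, of the oxidoreductase that passes electrons from fatty acid oxidation to ubiquinone, took 14.3% to 21.7% with linagliptin and 22.6% to 53.6% with vehicle. These groups did not overlap, while those of Acadvl-201, of very long chain acyl-CoA dehydrogenase, did (14.8% to 26.7% with linagliptin and 20.05% to 44.1% with vehicle). In each treatment the highest shares of Acadvl-201 were in the libraries that lay apart on the first principal component. Results without those libraries are not given for the shares of this list. Whether its calls, and the counts of 3 genes and 6 shares, depend on them was not tested.

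Other shares past the thresholds were split among the vehicle libraries. Tnnt2-211, of cardiac troponin T, took 44.6% to 47.2% in the linagliptin libraries, against 45.5% and 43.0% in vehicle replicates 2 and 5 and 19.5%, 20.5% and 19.5% in vehicle replicates 1, 3 and 4. Hspa5-201, of the chaperone BiP of the endoplasmic reticulum, took 48.8% to 60.2% with linagliptin, against 27.5%, 45.6%, 3.95%, 3.61% and 3.08% with vehicle. Sparc-201, of a matricellular glycoprotein, took 82.5% to 86.4% with linagliptin, against 80.0%, 89.3%, 12.2%, 11.4% and 2.73% with vehicle. In Hspa5 and Sparc the low vehicle libraries were replicates 3, 4 and 5, of which 3 and 4 also lay apart on the first principal component. The part of that in these shares was not tested, and their results without the 3 libraries that lay apart are not given.

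Among whole genes the lowest p belonged to Pakap, a gene model that joins Palm2 with Akap2, a gene for an anchoring protein of protein kinase A. Pakap was 5.89, 5.58, 3.39, 2.59 and 5.95 FPKM with linagliptin, against 1.05, 2.20, 2.27, 1.48 and 1.09 FPKM with vehicle, with no overlap (log2 fold change 1.10, standard error 0.21, adjusted p = 0.997, limma). Its model, on chromosome 4 from 57568179 to 57896982, shares exons with the separately listed Akap2 and Palm2, so its reads cannot be told apart from theirs with certainty. Akap2 was far higher than Pakap, at 18.0 to 71.1 FPKM with linagliptin and 26.5 to 64.7 FPKM with vehicle (log2 fold change 0.02, standard error 0.34). Palm2 was 0 to 1.14 FPKM with linagliptin and 0 to 0.803 FPKM with vehicle. Such overlaps were common among the 25 genes: 7 (28%) share exon positions with another listed gene, as 341 (3.0%) of all genes tested do.

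Pde2a, a phosphodiesterase that is stimulated by cGMP and breaks down cAMP and cGMP, showed the same limit. It was 3.86, 2.44, 4.31, 6.03 and 4.91 FPKM with linagliptin, against 2.51, 0.847, 1.28, 3.81 and 0.0564 FPKM with vehicle (log2 fold change 1.12, standard error 0.35). Gm45837, a gene model that overlaps Pde2a over nearly its whole length, went the other way, at 1.91, 6.55, 3.47, 3.84 and 4.03 FPKM with linagliptin, against 3.79, 7.78, 8.94, 6.07 and 9.99 FPKM with vehicle (log2 fold change -0.75, standard error 0.26). The sum of both was 5.77, 8.99, 7.78, 9.87 and 8.94 FPKM with linagliptin and 6.30, 8.63, 10.2, 9.88 and 10.1 FPKM with vehicle, which overlap. The higher Pde2a and the lower Gm45837 therefore did not add up to a higher level over both models. Gm45837 lost its call without linagliptin replicate 1 (log2 fold change -0.58) and without the 3 libraries that lay apart.

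A further group of genes took one of 2 levels in single libraries. Tmem70, an assembly factor of the mitochondrial ATP synthase, was 18.7, 22.6, 25.4, 19.2 and 21.5 FPKM with linagliptin, against 52.1, 19.1, 60.9, 23.6 and 65.4 FPKM with vehicle, so that vehicle replicates 2 and 4 were at the level of the linagliptin libraries (log2 fold change -0.85, standard error 0.31). Itgav, the integrin alpha V chain, was 6.42, 7.89, 7.31, 2.1 and 2.33 FPKM with linagliptin, against 2.08, 1.94, 2.80, 2.83 and 1.33 FPKM with vehicle. Usp50, a gene of the ubiquitin-specific protease family, was listed at 0 or at most 0.0140 FPKM with linagliptin, against 3.29, 0, 2.42, 0.0254 and 3.66 FPKM with vehicle. In Tmem70 and Usp50 it was the same 3 vehicle libraries, replicates 1, 3 and 5, that were high. March8, a membrane-bound ubiquitin ligase, was 5.94 to 6.43 FPKM with linagliptin, against 5.71, 0.805, 1.10, 6.26 and 4.83 FPKM with vehicle, and Ccdc71 was 6.95, 2.73, 7.62, 3.03 and 3.05 FPKM with linagliptin, against 6.75 to 7.76 FPKM with vehicle.

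Of the genes with values spread more evenly, Fbxo33, an F-box subunit of a ubiquitin ligase, was 2.50, 3.34, 1.88, 2.67 and 3.10 FPKM with linagliptin, against 1.08, 0.902, 0.878, 2.02 and 1.91 FPKM with vehicle (log2 fold change 0.67, standard error 0.16). Tmem230, a membrane protein of secretory vesicles, was 10.2, 9.63, 10.2, 10.6 and 12.2 FPKM with linagliptin and 7.86, 3.68, 9.15, 7.97 and 3.67 FPKM with vehicle (log2 fold change 0.70, standard error 0.22). The groups of Tmem230 did not overlap, and those of Fbxo33 did through linagliptin replicate 3. Tmem230 lost its call without vehicle replicate 2 or vehicle replicate 5, where its log2 fold change was 0.56 each time. Arpc5, a subunit of the actin-nucleating Arp2/3 complex, was 9.49 to 24.4 FPKM with linagliptin and 8.51 to 14.2 FPKM with vehicle, and Crispld2, a secreted glycoprotein, was 0.356 to 1.97 FPKM with linagliptin and 0.0638 to 0.491 FPKM with vehicle.

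Also past the thresholds on the higher side were Cbll1, a ubiquitin ligase (log2 fold change 0.59), Mgat1, an enzyme of N-glycan synthesis (0.66), Rprd1b, which binds RNA polymerase II (0.70), and AL732309.1, which overlaps Ndor1 (0.62). Gm27021, a model that overlaps Emc8, was 0.874, 0.618, 0.603, 0 and 0.848 FPKM with linagliptin and listed at 0 in all 5 vehicle libraries. It was the only gene with an adjusted p under 0.05 in a fit that left out 1 library, 0.00520 without linagliptin replicate 4 (limma). On the lower side, Ninj1, which ruptures the plasma membrane of dying cells, was 17.1, 15.8, 23.3, 16.5 and 15 FPKM with linagliptin, against 34.3, 15.9, 28.6, 26.2 and 37.1 FPKM with vehicle. The others were Pcyt1a, the rate-limiting enzyme of phosphatidylcholine synthesis (log2 fold change -0.82), Golph3l, a Golgi protein (-0.79), Pgap2, which acts on GPI anchors (-0.63), Lmo2, a transcriptional cofactor of blood and endothelial cells (-0.60), AK157302 (-0.61), Gm27029, which overlaps Aarsd1 and Ptges3l (-0.87), and AC158777.2, which overlaps Ndufb9 and Rnf139 (-0.81).

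In the 10 fits that left out 1 library, 8 of the 25 genes kept their call each time: Pakap, Gm27029, Fbxo33, Pde2a, AC158777.2, Usp50, Itgav and Tmem70. The other 17 lost it in at least 1 fit, most often March8, when any 1 of the linagliptin libraries was left out, or without vehicle replicate 2 or 3, where its log2 fold change was as low as 0.55. On the higher side, the lowest log2 fold change was 0.57 for Gm27021, which lost its call without linagliptin replicate 1 or 5. It was 0.51 for AL732309.1 (lost without linagliptin 4, vehicle 1 or 2), 0.45 for Crispld2 (without linagliptin 1, 2 or 4, vehicle 3 or 4), 0.46 for Arpc5 (without linagliptin 1, 4 or 5, vehicle 1, 3 or 4) and 0.39 for Cbll1 (without linagliptin 2 or 4, vehicle 1, 4 or 5). It was 0.52 for Mgat1 (without linagliptin 1, 2 or 5, vehicle 1, 2 or 3) and 0.46 for Rprd1b (without linagliptin 3 or 4, vehicle 1, 2, 3 or 5). On the lower side, the change nearest to 0 was -0.52 for Ninj1 (lost without linagliptin 5, vehicle 1 or 5), -0.51 for Pgap2 (without linagliptin 5, vehicle 1, 3 or 5), -0.51 for Ccdc71 (without linagliptin 2, 4 or 5), -0.54 for Golph3l (without linagliptin 2 or 4) and -0.60 for Pcyt1a (without linagliptin 1 or 4). It was -0.50 for AK157302 (without linagliptin 1, 2 or 5, vehicle 3 or 4) and -0.45 for Lmo2 (without linagliptin 1 or 4, vehicle 1, 4 or 5). Without the 3 libraries that lay apart, 15 of the 25 genes kept their call, and Ballgown's model called 9 of the 25. The 10 lost without the 3 libraries included AC158777.2, at a log2 fold change of -0.55, although it had kept its call in each of the 10 fits above. Their log2 fold changes were 0.53 for Cbll1, 0.80 for March8, 0.62 for Mgat1 and 0.59 for Rprd1b on the higher side. On the lower side they were -0.58 for AK157302, -0.48 for Lmo2, -0.69 for Gm45837, -0.88 for Golph3l and -0.62 for Pcyt1a, so that some remained beyond 1.5-fold and lost the call by their p.

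**Figure D3:**
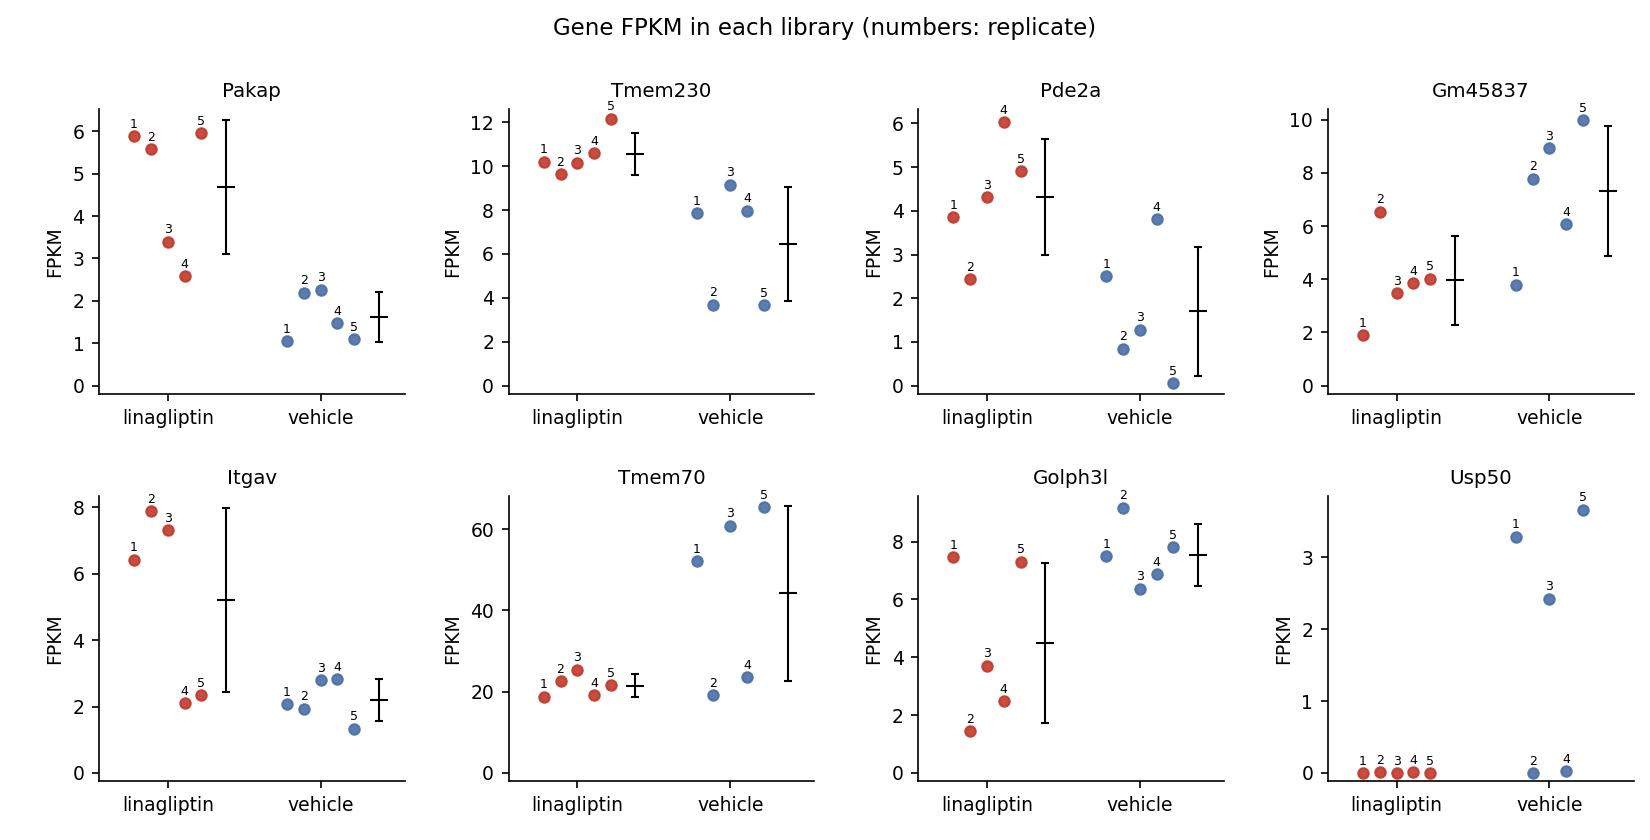
FPKM of single genes in each library of control cells, linagliptin on the left and vehicle on the right of each panel, with points for libraries labelled by replicate number, and beside them the mean with its SD (n = 5), left out for Usp50. Tmem70 lies between 18.7 and 25.4 FPKM in the linagliptin libraries and at 2 levels in the vehicle libraries, while Pakap does not overlap between the groups.

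**Figure D4:**
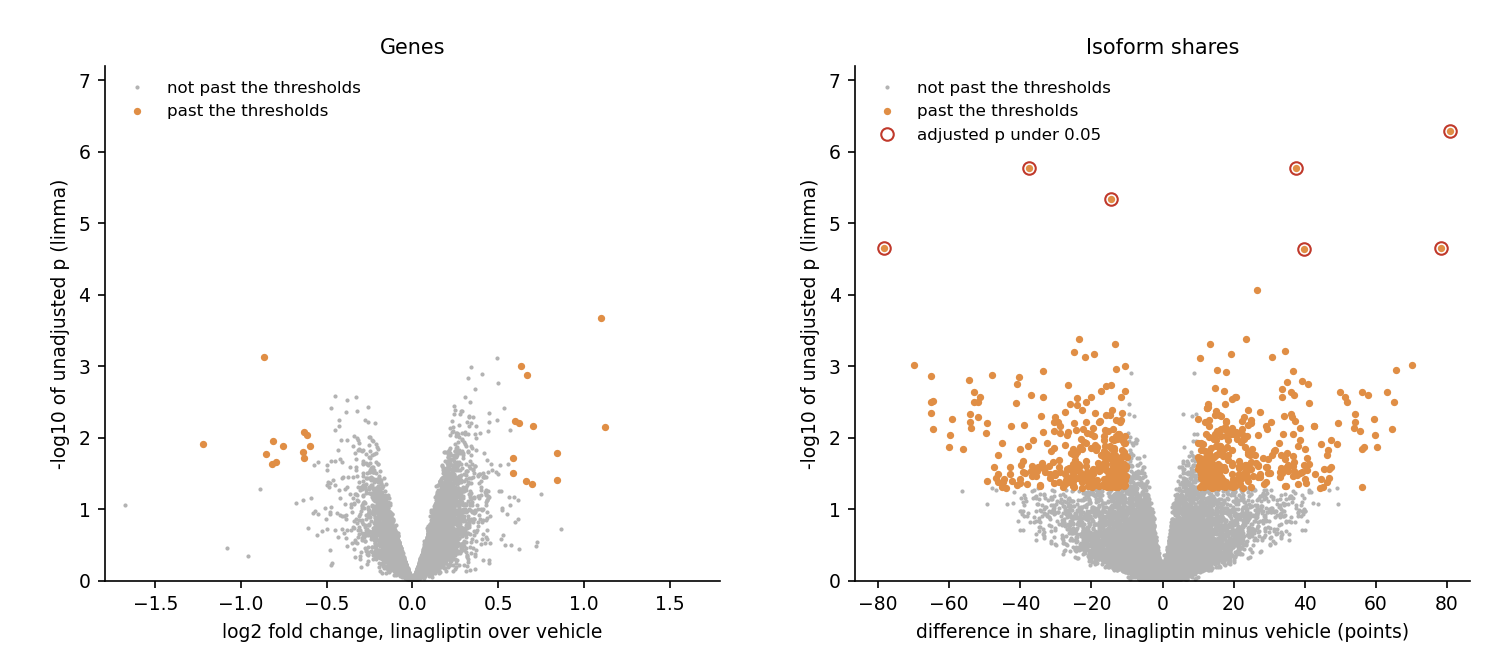
Effect (x axis) against -log10 of the unadjusted p from limma (y axis): left, the log2 fold change of linagliptin over vehicle for each of the 11365 genes tested; right, the difference in share in percentage points for each of the 12976 isoform shares tested. Orange points are the 25 genes and 655 shares past the thresholds, and open circles mark the 7 shares with an adjusted p under 0.05, of which genes had 0.

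Genes whose 5 linagliptin libraries did not overlap with the 5 vehicle libraries numbered 86 (0.757%), 66 (0.581%) higher and 20 (0.176%) lower with linagliptin. Most were below the fold threshold. Pop5, a protein subunit of RNase P and RNase MRP, was 11.4, 8.59, 8.06, 11.3 and 8.98 FPKM with linagliptin, against 7.51, 6.06, 6.45, 5.78 and 6.88 FPKM with vehicle (log2 fold change 0.49, standard error 0.11). Zhx1, a zinc finger and homeobox repressor, was 4.16 to 6.85 FPKM with linagliptin and 3.16 to 4.08 FPKM with vehicle (log2 fold change 0.50), and its model overlaps Gm29394. Srcap, the ATPase that loads histone H2A.Z, averaged 5.22 ± 0.54 FPKM with linagliptin and 3.71 ± 0.52 FPKM with vehicle (SD, n = 5 each), and its model overlaps Gm42715. Arl6ip6 averaged 5.66 ± 0.47 FPKM with linagliptin and 4.25 ± 0.34 FPKM with vehicle, and Trappc8, of a vesicle tethering complex, averaged 5.73 ± 0.36 FPKM with linagliptin and 4.39 ± 0.40 FPKM with vehicle. The log2 fold changes of these 3 were 0.40, 0.34 and 0.32, and each had an adjusted p of 0.997 (limma).

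Calcium cycling genes, described as a list of 23 measured members, held 0 genes past the thresholds by limma and 2 with an unadjusted p under 0.05, and 16 of 23 were above 0 with a median log2 fold change of 0.05, against 57.2% above 0 and a median of 0.02 over all genes tested. Pln was 230.1, 224, 228, 208 and 227 FPKM with linagliptin, against 167, 190.4, 156, 188 and 218 FPKM with vehicle, and 223 ± 9.05 FPKM against 184 ± 24.1 FPKM on average (SD, n = 5 each). Of the vehicle libraries only replicate 5 reached into the linagliptin range, and the log2 fold change was 0.29 (standard error 0.10, adjusted p = 0.997, limma). Without the 3 libraries that lay apart it was 0.22. Atp2a2 was 807, 706, 811, 641 and 653 FPKM with linagliptin, against 785, 633, 816, 844 and 579 FPKM with vehicle, a log2 fold change of -0.01 whose sign turned with single libraries. Atp2b1, the calcium pump of the plasma membrane, did not overlap, at 6.13 to 7.39 FPKM with linagliptin and 4.42 to 6.11 FPKM with vehicle (log2 fold change 0.36, standard error 0.09, adjusted p = 0.997, limma).

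Over all genes tested, 25 of 11365 (0.220%) passed the thresholds. Of the nitric oxide and cGMP list, 1 of 23 measured genes passed them, Pde2a, and 18 were above 0 (median 0.09). Nostrin, which traffics endothelial nitric oxide synthase, was 1.19 to 1.70 FPKM with linagliptin and 0.629 to 1.60 FPKM with vehicle. In the cAMP and protein kinase A list 1 of 30 passed, Pakap, and 15 were above 0 (median 0.00). The list of DPP-4 relatives, partners and receptors of its substrates had 0 of 16 past the thresholds by limma, 2 with an unadjusted p under 0.05 and 11 above 0 (median 0.04). Adora2a, an adenosine receptor coupled to cAMP, was 0.757, 0.590, 0.697, 0.674 and 1.02 FPKM with linagliptin, against 0.345, 0.409, 0.322, 0.433 and 0.549 FPKM with vehicle, with no overlap and a level near the filter on low values (log2 fold change 0.31, standard error 0.08, adjusted p = 0.997, limma). Fn1, fibronectin, which binds DPP-4, was 4.88 to 8.20 FPKM with linagliptin and 3.12 to 6.41 FPKM with vehicle.

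The metabolic lists held 1 gene past the thresholds, where 0.220% of all genes tested passed them. Of 27 fatty acid oxidation genes 23 were below 0, with a median log2 fold change of -0.08, and Echs1 and Eci1, which had the lowest p, were 30.4 ± 4.80 FPKM and 168 ± 17.7 FPKM with linagliptin, against 34.9 ± 4.55 FPKM and 187 ± 19.4 FPKM with vehicle (SD, n = 5 each). Of 22 genes of the ATP synthase and its assembly 16 were below 0 (median -0.05), with Tmem70 lower past the thresholds and Atp5g2, a c subunit gene, at 86.5 to 95.1 FPKM with linagliptin and 56.3 to 101 FPKM with vehicle. Of 28 genes of insulin signalling and glucose use 18 were above 0 (median 0.04), and Gapdh was 217 ± 42.3 FPKM with linagliptin and 165 ± 34.1 FPKM with vehicle (log2 fold change 0.40, standard error 0.17, adjusted p = 0.997, limma). The 13 mitochondrially encoded genes had a median of 0.05, and mt-Co2 and mt-Co3, subunits of cytochrome c oxidase, had log2 fold changes of -0.22 and -0.17. The share of FPKM that mitochondrial genes held was 35.9% ± 2.90 with linagliptin and 36.3% ± 1.2 with vehicle (SD, n = 5 each), a difference of -0.477 points with p = 0.770 in an exact permutation test (two-sided). The difference was 0.203 without linagliptin replicate 4 and 0.0867 without linagliptin replicate 5.

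Stress lists had medians near that of all genes. Heat shock chaperones (17 genes, median -0.02), antioxidant defence (26 genes, median -0.01), the circadian clock (16 genes, median 0.02), cardiac stress genes (15 genes, median 0.07) and immediate early genes (17 genes, median 0.05) had 0 genes past the thresholds by limma, and 1 gene each of the antioxidant, cardiac stress and immediate early lists had an unadjusted p under 0.05. Endoplasmic reticulum stress genes had a median of 0.15, but -0.13 without the 3 libraries that lay apart. Xbp1, a transcription factor of the unfolded protein response, was 42.5, 41.0, 23.9, 44.6 and 42.8 FPKM with linagliptin, against 42.0, 40.0, 31.1, 14.4 and 16 FPKM with vehicle, and the low libraries were linagliptin replicate 3 and vehicle replicates 3, 4 and 5. The list of genes with known cardiac splicing programmes had 20 of 30 above 0 (median 0.05). It had 2 of 102 shares past the thresholds, against 655 of 12976 (5.05%) over all shares tested. Tpm1, tropomyosin, averaged 513 ± 31.7 FPKM with linagliptin and 597 ± 62.8 FPKM with vehicle (SD, n = 5 each).

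Markers of other cell types of the heart were present in every library, and no measured marker was listed at 0 in any of the 10. Cardiomyocyte markers summed to 12152 to 12637 FPKM with linagliptin and 12494 to 14172 FPKM with vehicle. Endothelial markers summed to 195 to 333 FPKM with linagliptin and 209.6 to 265 FPKM with vehicle, and fibroblast markers to 91.5 to 119.8 FPKM with linagliptin and 73.5 to 115 FPKM with vehicle. Pericyte and smooth muscle markers summed to 75.4 to 110.4 FPKM with linagliptin and 75.5 to 98.7 FPKM with vehicle, macrophage and leukocyte markers to 62.2 to 77.8 FPKM with linagliptin and 59.6 to 85.2 FPKM with vehicle, and red cell markers to 6.81 to 16 FPKM with linagliptin and 7.96 to 19.8 FPKM with vehicle. Above 0 were 4 of 15 cardiomyocyte markers (median log2 fold change -0.07), 18 of 21 endothelial markers (0.15), 13 of 14 fibroblast markers (0.19), 9 of 11 pericyte markers (0.16), 8 of 11 macrophage markers (0.10) and 1 of 4 red cell markers (-0.11). Over all genes tested 57.2% were above 0, with a median of 0.02. The extracellular matrix and TGF-beta list, whose genes are mostly those of fibroblasts, had 32 of 33 above 0 (median 0.14). By limma 0 of these genes passed the thresholds, and those with an unadjusted p under 0.05 were 1 cardiomyocyte, 1 endothelial, 2 fibroblast and 4 matrix genes. Fn1 is counted under both fibroblast and matrix genes. Ddr2, a collagen receptor, averaged 3.75 ± 0.88 FPKM with linagliptin and 2.65 ± 0.42 FPKM with vehicle, and Fbn1, fibrillin 1, averaged 2.89 ± 0.57 FPKM with linagliptin and 2.26 ± 0.22 FPKM with vehicle (SD, n = 5 each). Flt1, a VEGF receptor, averaged 3.48 ± 0.83 FPKM with linagliptin and 2.52 ± 0.40 FPKM with vehicle, and Cdh5, VE-cadherin, averaged 36.7 ± 5.52 FPKM with linagliptin and 30.7 ± 2.87 FPKM with vehicle (SD, n = 5 each). The endothelial median ranged from 0.06 to 0.31 when 1 library was left out. Fewer cells of a type and less RNA per cell cannot be told apart in such data.

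**Figure D5:**
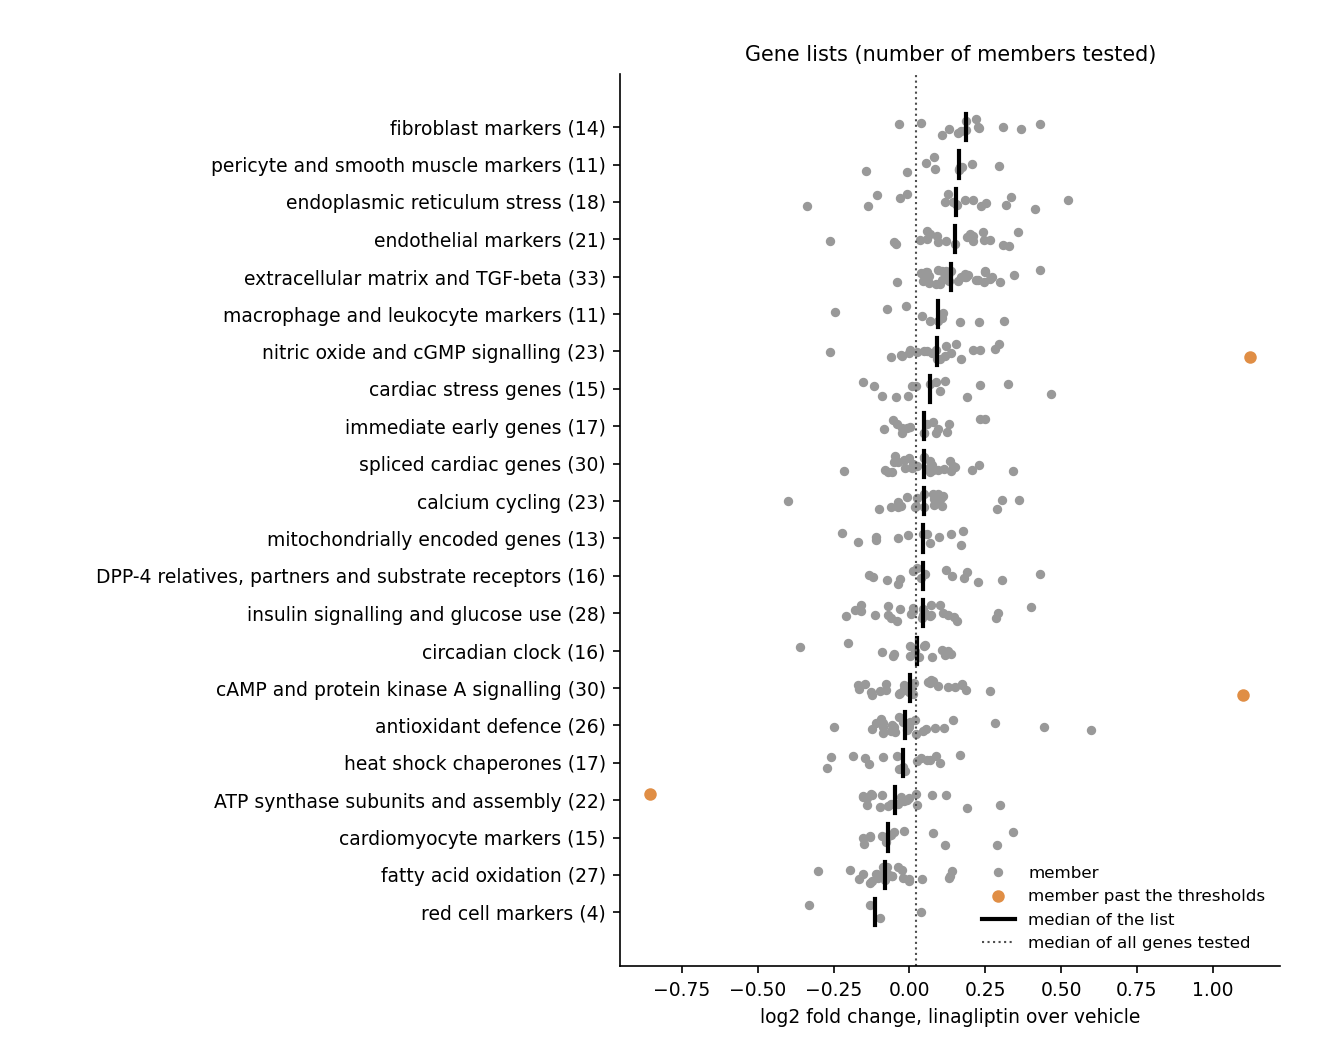
Log2 fold change of linagliptin over vehicle on the log2(FPKM + 1) scale (x axis) of each measured gene of the 22 lists (1 line per list, points for genes, a bar for the median), orange for genes past the thresholds, with the median of all genes tested as a dotted line. Extracellular matrix, fibroblast and endothelial genes lie mostly to the right of 0 and fatty acid oxidation genes mostly to the left.

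In cells of DM-HFD mice the same dose gave the same sign as in control cells for 9 of 23 of the 25 genes, the other 2, Gm27021 and Usp50, being listed at 0 in all 6 DM-HFD libraries. Over all genes tested the sign was the same for 47.2% (5359 of 11361). A test of the difference in response over all 16 libraries gave 0 of 11631 genes at an adjusted p under 0.05 (limma, lowest adjusted p = 0.891), with 532 at an unadjusted p under 0.05. There were 18 without DM-HFD linagliptin replicate 1. Tmem70 was 53.7, 32.9 and 39.6 FPKM in DM-HFD cells with linagliptin and 14.1, 19.0 and 14.5 FPKM in DM-HFD cells with vehicle, the opposite order to control cells, and the log2 fold change in control cells minus that in DM-HFD cells was -2.19 ± 0.46 (standard error; adjusted p = 0.891, limma). Ninj1 was 34, 63.2 and 70.4 FPKM there with linagliptin and 39.6, 22.7 and 37.3 FPKM with vehicle, and Pakap was 3.19, 0.499 and 0.892 FPKM with linagliptin and 1.19, 3.01 and 3.20 FPKM with vehicle. Tmem70, Ninj1 and Pakap were picked out after their values were seen and had the lowest p for this difference among the 25 genes. Among the 9 genes with the same sign was AL732309.1. In DM-HFD cells it was 2.65, 3.46 and 1.87 FPKM with linagliptin, against 0.297, 0.728 and 0.444 FPKM with vehicle. Isoform shares in DM-HFD cells varied within each treatment. Unkl-202 took 0%, 100% and 100% with linagliptin and 0%, 68.7% and 0% with vehicle, Fbf1-201 took 53.6%, 77.6% and 77.0% with linagliptin and 69.0% and 71.7% in the 2 vehicle libraries with a share, and Dgcr2-203 took 0%, 31.2% and 25.8% with linagliptin and 0%, 35.2% and 37.6% with vehicle. Bud13-206 took 20.3%, 28.9% and 18.2% with linagliptin and 53.9%, 31.0% and 0% with vehicle in DM-HFD cells. Epb41l2-205 took 0%, 0% and 11.5% there with linagliptin and 0%, 4.77% and 4.38% with vehicle. The difference in response of shares between control and DM-HFD cells was not tested.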

How the data were processed

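Poly(A)-selected RNA of 16 cardiomyocyte samples was sequenced as stranded paired-end libraries. Per the labels and the paper's methods, the authors checked reads with FastQC 0.11.7, trimmed them with cutadapt, aligned them to GRCm38 with HISAT2 2.1.0, assembled and quantified them with StringTie 1.3.3, and deposited gene and transcript values as FPKM from Ballgown. The tables hold 11631 genes, filtered by the authors on expression, and 23055 transcripts. Read numbers per library are not given in the sources used here, so the precision comes from replicates alone. Gene values are not sums of the listed transcripts: the median ratio was 0.813. All per-sample columns matched a sample label (0 were not used).

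The 5 linagliptin and 5 vehicle control libraries were compared with limma 3.58.1 (R 4.3.3) on log2(FPKM + 1), keeping features that averaged 0.5 FPKM or more in either group, with Benjamini-Hochberg adjustment over all features tested. This understates the change of low genes. Thresholds were a 1.5-fold change and p of at most 0.05. Shares were tested on the arcsine square root scale for genes with at least 2 listed transcripts and a mean sum of at least 1 FPKM, and for mean shares of 5% to 95%. The steps were tested on simulated data. Transcript names and coordinates came from GENCODE M21, which matched 21879 of 23055 transcripts.

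Named were the genes past the thresholds, the 10 genes, 15 shares and 15 transcripts of lowest p, the 2 members of lowest p in each list, and Pln and Atp2a2; overlapping gene models and other exceptions are said to be so. Members and lists were chosen with earlier results of these data known. Alternatives were a pseudocount of 0.1, no filter, TPM, median-of-ratios scaling, Ballgown's model, sums of transcripts, other share filters and scales, a replicate block, leaving out each library and, chosen after the data were seen, leaving out the 3 libraries that lay apart.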

Additional observations from a re-analysis of the deposited data

Results flagged for a closer look

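In 12 of 102 groups of 5 libraries 1 value lay far from the other 4 by Dixon's criterion. For independent values with a normal spread, chance alone meets it in about 1 in 20 groups. The groups here include both shares of Fbf1, which mirror each other, and shares listed at exactly 0. The 12 therefore cannot be judged against that rate. Linagliptin replicate 3 was at 27.0 on the first principal component, with the other linagliptin libraries between -11.5 and -7.17. The same library was highest for Ninj1 (23.3 FPKM, others 15 to 17.1) and Pgap2 (6.26 FPKM, others 3.12 to 3.84) and held the largest share of Fbf1-201 (15%, others at most 0.609%) and the lowest of Fbf1-202 (85.0%). In linagliptin replicate 4, AL732309.1 was highest (3.89 FPKM, others 2.85 to 3.14), and Pln (208 FPKM, others 224 to 230.1) and the share of Dgcr2-203 (26.5%, others 44.9% to 49.2%) were lowest. In linagliptin replicate 2, AC158777.2 was highest (2.36 FPKM, others 0.283 to 0.756). Among vehicle libraries, replicate 4 had the only share of Dgcr2-203 above 0 (13.4%), replicate 2 the highest of Wbp1l-204 (2.48%, others at most 0.153%) and replicate 1 the highest Atp2b1 (6.11 FPKM, others 4.42 to 4.91).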

How the results depend on the processing

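FPKM without read numbers per library, exact zeros in low transcripts and overlapping gene models limit these comparisons, and the cause of each change below was not tested. Against 25 genes past the thresholds, a pseudocount of 0.1 gave 75, TPM 59, sums of transcripts 72, Ballgown's model 15 (5 higher and 10 lower) and omission of the 3 libraries that lay apart 53 (37 higher and 16 lower). Leaving out 1 library gave 24 to 53, and 0 to 1 at an adjusted p under 0.05. Transcripts at an adjusted p under 0.05 (3) were 1 with the pseudocount of 0.1, 13 without the 3 libraries and 1 to 6 without 1 library. Shares past the thresholds (655) were 422 with a mean sum of at least 5 FPKM, which left 9517 shares to test, and those at an adjusted p under 0.05 (7) were 1 with that filter, 27 without the 3 libraries and 3 to 14 without 1 library. Whether replicate numbers mark a shared source is not in the labels. Deviations of the same number correlated by 0.505, 0.276, 0.383 and 0.368 for replicates 1, 2, 3 and 5 but by -0.315 for replicate 4. Linagliptin replicates 1, 2 and 5 matched their own number best. These values do not settle whether the numbers mark pairs, and the main fits did not take them as pairs. With a replicate block 31 genes passed the thresholds (699 at an unadjusted p under 0.05) and 0 transcripts (lowest adjusted p = 0.470, limma; 1457 at an unadjusted p under 0.05) and 0 shares (lowest 0.0894; 808) passed the adjustment. Genes that differed in response from DM-HFD cells numbered 0 to 18 without 1 library. The difference in mitochondrial share ranged from -1.51 to 0.203 without 1 library. Directions turned for 2 named genes: the log2 fold change of the gene Atp2a2 was 0.0113 with TPM, 0.0813 without the 3 libraries and -0.0876 to 0.0482 without 1 library, and that of the gene Hba-a2 was -0.295 to 0.0452 without 1 library, positive without linagliptin replicate 3 or vehicle replicate 2. The median of mitochondrially encoded genes was -0.10 without the 3 libraries.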
